A study of Mus musculus with 20 samples.

Results

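The antioxidant and glutathione genes are 41 genes named by symbol: glutathione peroxidases, peroxiredoxins, thioredoxins and their reductases, superoxide dismutases and catalase, the enzymes that make and reduce glutathione, glutathione transferases, glutaredoxins, quinone and heme enzymes, and the regulators Nfe2l2 and Keap1. All 41 were found among the 24411 gene symbols of the authors' deposited tables. Cells make superoxide and hydrogen peroxide as by-products of respiration, and superoxide dismutases turn superoxide into hydrogen peroxide, which catalase, peroxiredoxins and glutathione peroxidases reduce. Most peroxiredoxins are recharged by thioredoxin and thioredoxin reductase, glutathione peroxidases by glutathione, and both systems draw on NADPH. The mature egg carries a store of glutathione and of stored mRNA into the zygote, and the embryo replaces the stored mRNA when it starts transcription of its own genome.

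Poly(A) RNA was measured by Smart-seq2 in untreated mouse eggs and embryos, in 7 groups with 20 samples in all, and each sample pooled 10 to 15 of them. The inbred strain C57BL/6J was sampled as MII eggs (arrested in the second meiotic metaphase), G1 zygotes, G2 zygotes and 2-cell embryos in G2, with 3 samples each. The F1 hybrid, called B6CASTF1 in the labels, was sampled at the last 3 of these stages, with 3, 3 and 2 samples used here, and the labels do not say which strain was the mother. All oocytes were matured in culture for 12 h, fertilization was in vitro in a medium to which glutathione had been added, and culture was under 5% oxygen, so every embryo group shares these conditions.

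The series' title names zygotic genome activation, and its design sets each stage against the one before. The authors' deposited tables give 1 log2 fold change with its standard error (SE) and adjusted p per gene for each of 5 comparisons, and hold no values per sample. A gene is said here to have risen or fallen where the authors' adjusted p was under 0.05, and a gene without an adjusted p is called not tested. Stage levels are approximate mean normalized counts implied by a strain's mean count together with its fold changes, so each is 1 value per stage whose error is carried by the SE of the fold change. A level under 1 means counts at or near 0 in that stage, and no linear fold is given against it. Log2 fold changes and strain differences that involve such a stage are given, but counts near 0 leave their size uncertain. The 2 strains were normalized separately, so levels are set side by side but not tested across them, and strain and library set cannot be told apart. In whole batches, fewer cells of a type and less RNA per cell cannot be told apart, nor can the amount of an mRNA and the length of its poly(A) tail under oligo-dT priming.

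All of 12 oocyte markers had a level of at least 10 in every stage, with a summed level of 23960 to 510705. This floor was met in 2-cell embryos too, so it does not tell the stages apart. The summed level was 30181 in B6CASTF1 and 23960 in C57BL/6J 2-cell embryos, against 153225 and 132043 in G2 zygotes. For the 2-cell markers, 10 in number, it was 33026 and 10737 in 2-cell embryos, against 11704 and 4124 in G2 zygotes. Among them Dux was under 1 in C57BL/6J 2-cell embryos. Of 10 cumulus and granulosa markers the summed level ran between 302 and 2298, led by Cyp19a1 in eggs and zygotes and by Amhr2 in 2-cell embryos, and Amh was under 1 in every stage. In B6CASTF1, 6 of the 10 had a level of at least 10 in G1 zygotes, 3 in G2 zygotes and 6 in 2-cell embryos, against 1 or 2 in each C57BL/6J stage. Ptgs2 rose in B6CASTF1 2-cell embryos to 203, against 0.895 in G2 zygotes, and was under 1 in C57BL/6J 2-cell embryos. Of 10 oviduct and blood markers the summed level was 9633 in B6CASTF1 and 6365 in C57BL/6J 2-cell embryos, against 146 and 112 in the G2 zygotes of the same strains. Epcam rose there in both strains and Hba-a1 in B6CASTF1 (not tested in C57BL/6J), while Hbb-bs, Hba-a2 and Ptprc were under 1, and the part of this list in the 2-cell results was not tested.

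Before the 2-cell stage the RNA of the group came mainly from a few genes. Ranked by level per kb of transcript, Prdx1, Mgst3, Prdx2 and Glrx held the first 4 places among the 41 genes in C57BL/6J eggs and in zygotes of both strains. Prdx1, a cytosolic peroxiredoxin (chromosome 4, 116685544 to 116700822, plus strand, GRCm38), stood at 35979 per kb in C57BL/6J MII eggs, and Mgst3, a membrane-bound glutathione transferase (chromosome 1, 167371966 to 167393841, minus strand), at 29154 per kb. At the 2-cell stage Gpx1, Gpx4, Prdx4, Prdx6 and Hmox2 were among the first 7 places in both strains, and neither Mgst3 nor Glrx was. Sod3, the secreted superoxide dismutase, was listed at 0 in both strains, and Gpx8 and Gstm2 were listed at 0 in C57BL/6J.

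Most calls were made between G2 zygotes and 2-cell embryos, where Gpx1, Gpx4, Prdx4, Prdx5, Prdx6, Gclc, Gss and Gsr were among the members that rose in both strains, and Prdx1, Mgst3 and Glrx, which were among the first 4 in the egg, fell in both. In B6CASTF1, 17 of 39 tested members rose and 9 fell, beside 33.1% of all tested genes that rose and 26.8% that fell. In C57BL/6J, 17 of 35 rose and 5 fell, beside 25.0% and 25.3% of all tested genes. The shares of members that rose were thus 43.6% and 48.6%, and the shares that fell 23.1% and 14.3%. The median log2 fold change of the tested members was 1.35 in B6CASTF1 and 1.72 in C57BL/6J, against 0.55 and 0.17 over all tested genes. In C57BL/6J 9 members still rose when the SE was raised 1.5 times, 1 of several alternatives given in the closing section. The share of all tested genes was not recomputed under that setting, so this count has no matching share.

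The 2 strains share no sample. Of the 35 members tested in both, 13 rose in both (Gpx1, Gpx4, Prdx4, Prdx5, Prdx6, Gclc, Gss, Gsr, Gstm1, Gsto1, Glrx2, Glrx3 and Hmox2), 5 fell in both (Prdx1, Mgst1, Mgst3, Glrx and Nqo1) and 0 moved in opposite directions. Of the 12573 genes tested in both, 20.7% rose in both, 18.4% fell in both and 0.986% moved in opposite directions. Their log2 fold changes correlated at r = 0.82 (Spearman rho = 0.86) across these 35 genes, beside rho = 0.76 over the 12573 genes tested in both. This is a description across genes, which are not independent replicates.

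**Figure D1:**
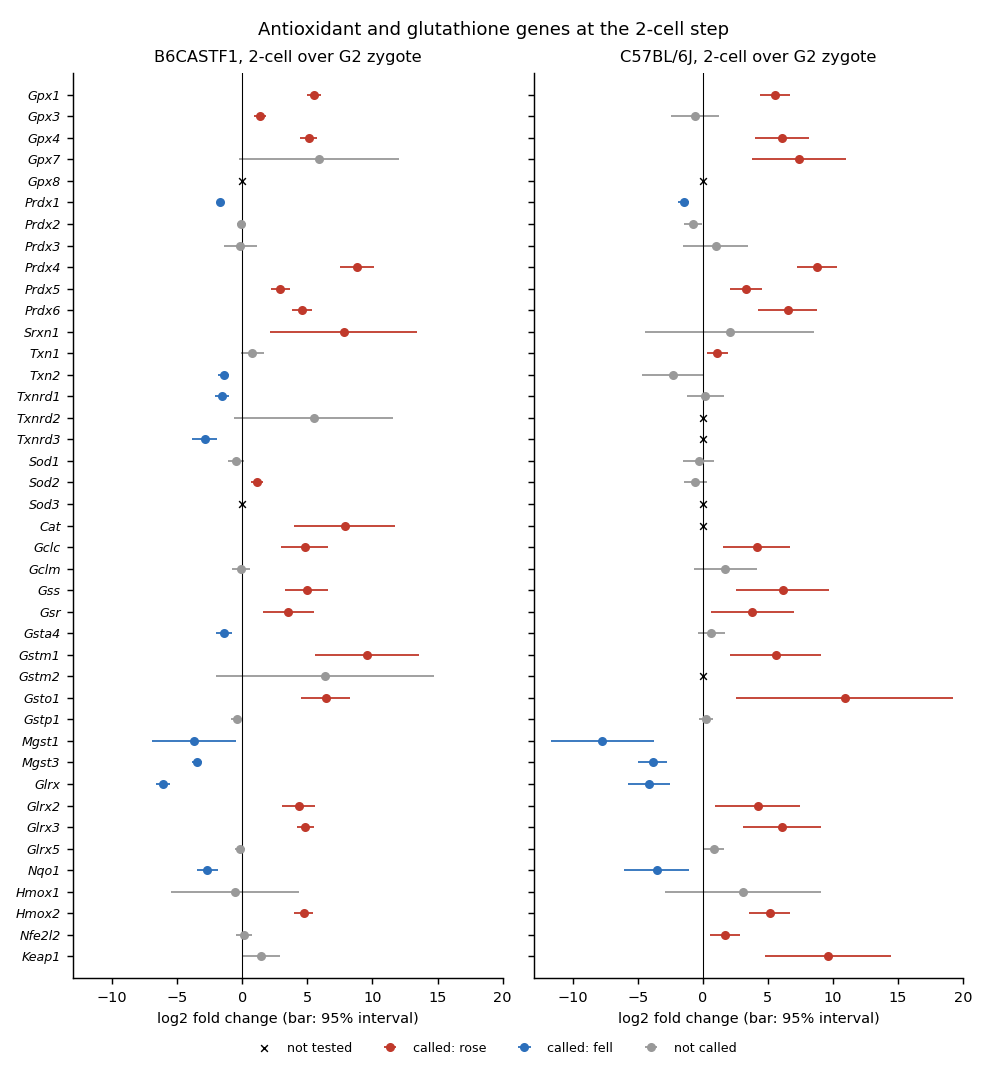
Log2 fold change of each member in 2-cell embryos over G2 zygotes, from the authors' deposited tables, in B6CASTF1 (left) and C57BL/6J (right); points are the fold changes and bars their 95% intervals, red for members that rose, blue for those that fell, grey for no call and a cross at 0 for members not tested. In both panels Prdx4 is among the farthest to the right (8.80 and 8.75) and Glrx is to the left of 0 (-6.11 and -4.14).

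Among the glutathione peroxidases, which reduce peroxides with glutathione, Gpx1 and Gpx4 rose in both strains. Gpx1, the main cytosolic enzyme for hydrogen peroxide (chromosome 9, 108338903 to 108340343, plus strand), had a level of 8818 in B6CASTF1 2-cell embryos, against 194 in G2 zygotes, and of 10059.7 in C57BL/6J 2-cell embryos, against 216 in G2 zygotes. Its log2 change in the authors' deposited tables was 5.50 (SE 0.27 and adjusted p = 1.18e-88) in B6CASTF1 and 5.54 (SE 0.57 and adjusted p = 9.87e-21) in C57BL/6J. Gpx4, which reduces lipid peroxides in membranes and guards against ferroptosis (chromosome 10, 80047166 to 80056439, plus strand), had a level of 6592 in B6CASTF1 2-cell embryos, against 195 in G2 zygotes, and of 5297 in C57BL/6J 2-cell embryos, against 78.5 in G2 zygotes. The authors' deposited tables gave it a log2 change of 5.08 (SE 0.32 and adjusted p = 7.91e-55) in B6CASTF1 and 6.08 (SE 1.07 and adjusted p = 1.07e-07) in C57BL/6J. These are folds of 45.4 and 46.5 for Gpx1 and of 33.9 and 67.5 for Gpx4.

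Gpx3, the secreted plasma enzyme, took another course. In B6CASTF1 it had a level of 1256 in G1 zygotes, 441 in G2 zygotes and 1124 in 2-cell embryos, and it fell at the first of these steps and rose at the second. In C57BL/6J it stood at 309, 167, 220 and 147 across MII eggs, G1 zygotes, G2 zygotes and 2-cell embryos, with no call at any step. Gpx7, a cysteine peroxidase of the endoplasmic reticulum, had a level of 369 in B6CASTF1 2-cell embryos, against 6.33 in G2 zygotes, and of 632 in C57BL/6J 2-cell embryos, against 3.80 in G2 zygotes. In the authors' deposited tables this rise was called in C57BL/6J (log2 fold change 7.38, SE 1.85 and adjusted p = 0.000259) and not in B6CASTF1 (5.87, SE 3.14 and adjusted p = 0.0952). Gpx8 had a level of 9.13 in B6CASTF1 G1 zygotes and under 1 afterwards, and was not tested.

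Of the peroxiredoxins, most of which reduce peroxides with thioredoxin, Prdx4, Prdx5 and Prdx6 rose in both strains. Prdx4, the peroxiredoxin of the endoplasmic reticulum (chromosome X, 155323918 to 155340754, minus strand), had a level of 3903 in B6CASTF1 2-cell embryos, against 8.75 in G2 zygotes, and of 7682 in C57BL/6J 2-cell embryos, against 17.9 in G2 zygotes. In the authors' deposited tables its log2 fold change was 8.80 (SE 0.68 and adjusted p = 1.17e-37) in B6CASTF1 and 8.75 (SE 0.79 and adjusted p = 1.41e-26) in C57BL/6J, folds of 446 and 430. Prdx6, which works with glutathione rather than thioredoxin and also repairs oxidized phospholipids, had a level of 8763 in B6CASTF1 2-cell embryos, against 364 in G2 zygotes, and of 8222 in C57BL/6J 2-cell embryos, against 89.6 in G2 zygotes. Prdx5, a peroxiredoxin of mitochondria, peroxisomes and cytosol, rose 7.54-fold to 1734 in B6CASTF1 2-cell embryos and 9.95-fold to 1489 in C57BL/6J 2-cell embryos.

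Prdx1 fell in both strains. Its level was 13984 in B6CASTF1 2-cell embryos, against 45970.5 in G2 zygotes, and 26290.1 in C57BL/6J 2-cell embryos, against 73963 in G2 zygotes. The log2 change in the authors' deposited tables was -1.72 (SE 0.14 and adjusted p = 2.13e-35) in B6CASTF1 and -1.49 (SE 0.21 and adjusted p = 1.25e-11) in C57BL/6J. The SE of Prdx1 was the smallest among the members that changed in both strains at this step, so this modest fall is measured more closely than the large rise of Prdx4. Prdx2, the other abundant cytosolic peroxiredoxin, had a level of 22283 in B6CASTF1 2-cell embryos, against 23944 in G2 zygotes, and of 14415 in C57BL/6J 2-cell embryos, against 24688 in G2 zygotes, with no call in either strain. The 95% interval of its log2 change in the authors' deposited tables ran from -0.45 to 0.24 in B6CASTF1 and from -1.48 to -0.07 in C57BL/6J. Prdx3, the mitochondrial peroxiredoxin, had no call at this step. Srxn1, which rescues overoxidized peroxiredoxins, rose in B6CASTF1 to a level of 36.4, against under 1 in G2 zygotes, and had 49.4 against 12.0 in C57BL/6J with no call.

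Expressed as a share of the summed level per kb of the 6 peroxiredoxins, Prdx1 made up 85.6% in C57BL/6J MII eggs, 68.7% in G1 zygotes, 65.7% in G2 zygotes and 33.8% in 2-cell embryos. In B6CASTF1 its share was 67.5%, 54.9% and 20.3% across G1 zygotes, G2 zygotes and 2-cell embryos. Prdx4 made up 13.1% of the family in B6CASTF1 2-cell embryos and 22.9% in C57BL/6J 2-cell embryos. These shares depend on the annotated transcript taken for each gene.

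**Figure D2:**
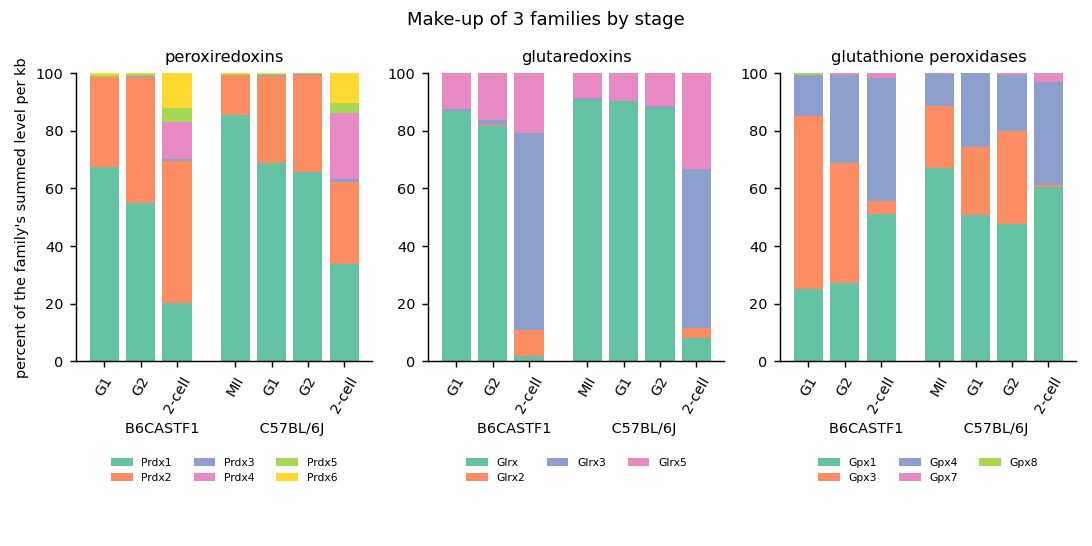
Share of each gene in the summed implied level per kb of its family (vertical axis, percent), by stage, with B6CASTF1 stages left of C57BL/6J stages in each panel; bars are single implied means with no error. Prdx1 and Glrx fill most of the bar in eggs and zygotes, and at the 2-cell stage Prdx1 stands at 20.3% in B6CASTF1 and 33.8% in C57BL/6J, and Glrx at 1.72% and 7.94%.

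Glutaredoxins, which remove glutathione from protein thiols and help to carry iron-sulfur clusters, moved both ways: Glrx fell and Glrx2 and Glrx3 rose in both strains. Glrx, the cytosolic enzyme (chromosome 13, 75839868 to 75850154, plus strand), had a level of 89.3 in B6CASTF1 2-cell embryos, against 6165 in G2 zygotes, and of 376 in C57BL/6J 2-cell embryos, against 6629 in G2 zygotes. It fell 69.0-fold and 17.6-fold, with a log2 change in the authors' deposited tables of -6.11 (SE 0.28 and adjusted p = 1.17e-100) in B6CASTF1 and -4.14 (SE 0.81 and adjusted p = 1.72e-06) in C57BL/6J. Glrx3, a multidomain glutaredoxin of the iron-sulfur pathway (chromosome 7, 137437614 to 137468594, plus strand), had a level of 4456 in B6CASTF1 2-cell embryos, against 155 in G2 zygotes, and of 3283 in C57BL/6J 2-cell embryos, against 48.3 in G2 zygotes. Its log2 change in the authors' deposited tables was 4.84 (SE 0.35 and adjusted p = 2.14e-43) in B6CASTF1 and 6.09 (SE 1.52 and adjusted p = 0.000235) in C57BL/6J. Glrx2, the mitochondrial form, rose 20.2-fold to 1174 and 18.3-fold to 409. Glrx5, which acts in mitochondrial iron-sulfur assembly, had a level of 2324 in B6CASTF1 2-cell embryos, against 2661 in G2 zygotes, and of 3421 in C57BL/6J 2-cell embryos, against 1873 in G2 zygotes, with no call in either strain. Per kb, Glrx made up 81.8% to 90.8% of the family in eggs and zygotes, and Glrx3 made up 68.6% in B6CASTF1 and 55.4% in C57BL/6J 2-cell embryos.

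**Figure D3:**
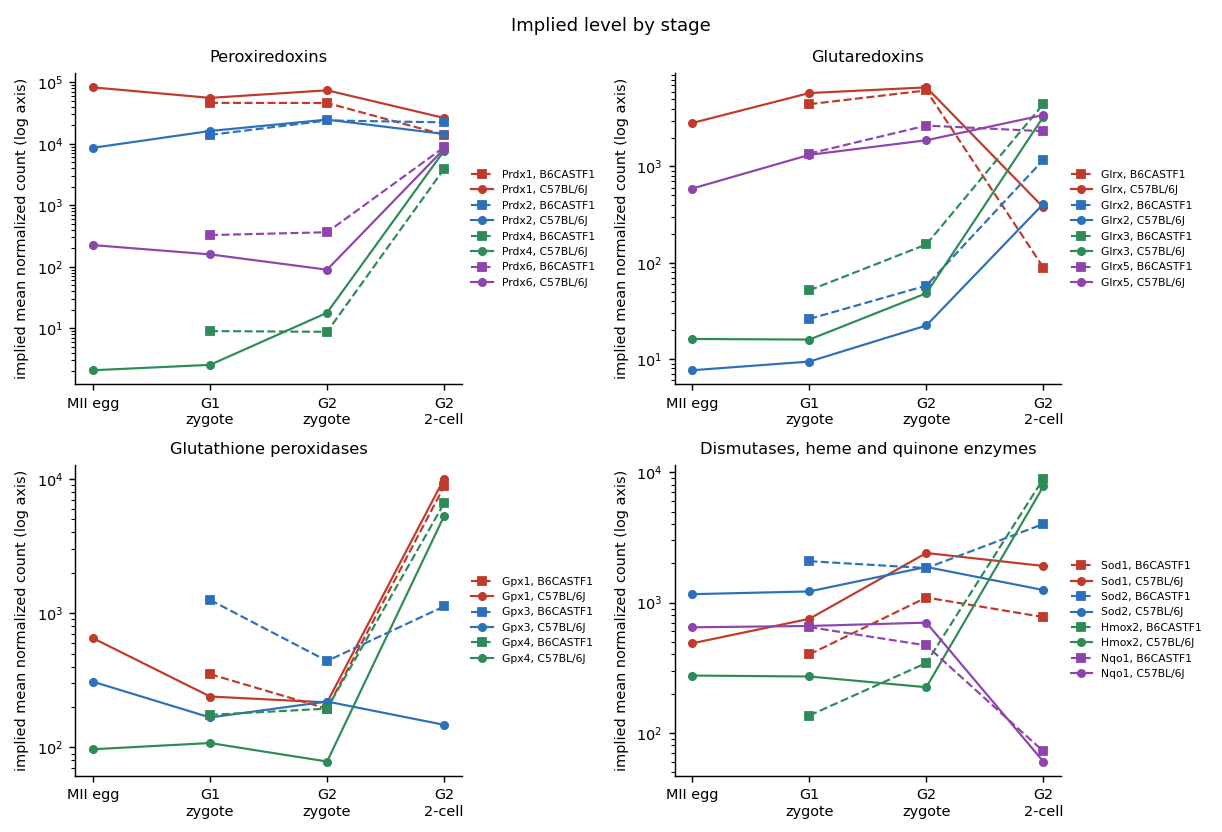
Implied mean normalized count of selected members (vertical log axis) by stage (horizontal axis), with dashed lines and squares for B6CASTF1 and solid lines and circles for C57BL/6J; each point is 1 implied mean without a per-sample error. Gpx1, Gpx4, Prdx4, Prdx6, Glrx2, Glrx3 and Hmox2 stand at their highest in 2-cell embryos of both strains, and Glrx and Nqo1 at their lowest.

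Glutathione itself is made in 2 steps. Gclc is the catalytic and Gclm the regulatory subunit of the rate-limiting ligase, Gss is the synthetase of the second step, and Gsr returns oxidized glutathione to its reduced form. Gclc had a level of 1123 in B6CASTF1 2-cell embryos, against 41 in G2 zygotes, and of 260 in C57BL/6J 2-cell embryos, against 14.8 in G2 zygotes. The log2 fold change of Gclc in the authors' deposited tables was 4.78 (SE 0.91 and adjusted p = 5.62e-07) in B6CASTF1 and 4.13 (SE 1.31 and adjusted p = 0.00448) in C57BL/6J. Gclm had no call, with a level of 532 in B6CASTF1 2-cell embryos, against 566 in G2 zygotes, and of 709 in C57BL/6J 2-cell embryos, against 215 in G2 zygotes. In the authors' deposited tables the 95% interval for Gclm ran from -0.78 to 0.60 in B6CASTF1 and from -0.69 to 4.14 in C57BL/6J, so in C57BL/6J a change of Gclm as large as that of Gclc was within the error. The level of Gclc was lower in G2 than in G1 zygotes in both strains (41 against 178 in B6CASTF1, 14.8 against 84.7 in C57BL/6J), without a call (adjusted p = 0.0511 and 0.28 in the authors' deposited tables).

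Gss rose in both strains at the 2-cell step. It had 1127 in B6CASTF1 2-cell embryos, against 36.5 in G2 zygotes, and 13.5 in C57BL/6J 2-cell embryos, against 0.193 in G2 zygotes. Its level in C57BL/6J was 41.3 in MII eggs and 47.0 in G1 zygotes. The C57BL/6J rise thus started from a stage near 0 and stayed below the egg level. In B6CASTF1 G1 zygotes Gss had 19.8, so there the 2-cell level was above both zygote levels. The authors' deposited tables gave it a log2 change of 4.95 (SE 0.84 and adjusted p = 1.31e-08) in B6CASTF1 and 6.13 (SE 1.83 and adjusted p = 0.00239) in C57BL/6J. Gsr had a level of 402 in B6CASTF1 2-cell embryos, against 34.9 in G2 zygotes, and of 504 in C57BL/6J 2-cell embryos, against 36.5 in G2 zygotes. The rise of Gsr was 11.5-fold and 13.8-fold, with an adjusted p of 0.000925 and 0.0417 in the authors' deposited tables. Gsr in C57BL/6J lost its call when fold changes were recentred on the median gene.

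The glutathione transferases, which attach glutathione to reactive compounds, split by member. Gsto1, an omega-class enzyme, had a level of 756 in B6CASTF1 2-cell embryos, against 8.99 in G2 zygotes, and of 714 in C57BL/6J 2-cell embryos, against 0.377 in G2 zygotes. Gstm1, a mu-class enzyme, had a level of 249 in B6CASTF1 2-cell embryos, against 0.322 in G2 zygotes, and of 1274 in C57BL/6J 2-cell embryos, against 26.6 in G2 zygotes. Both rose in each strain, with log2 fold changes in the authors' deposited tables of 6.39 (SE 0.95) and 10.89 (SE 4.25) for Gsto1 and of 9.60 (SE 2.05) and 5.58 (SE 1.79) for Gstm1. Gstm1, Gstm2 and Gstp1 have close paralogs among which reads can be split, so their values are uncertain.

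The 2 microsomal enzymes fell. Mgst3 had a level of 849 in B6CASTF1 2-cell embryos, against 9382 in G2 zygotes, and of 1737 in C57BL/6J 2-cell embryos, against 24994 in G2 zygotes. Its log2 change in the authors' deposited tables was -3.47 (SE 0.19 and adjusted p = 6.91e-71) in B6CASTF1 and -3.85 (SE 0.57 and adjusted p = 1.62e-10) in C57BL/6J. Mgst1 had a level of 8.37 in B6CASTF1 2-cell embryos, against 108 in G2 zygotes, and of 0.246 in C57BL/6J 2-cell embryos, against 52.0 in G2 zygotes. Gsta4, which conjugates the lipid peroxidation product 4-hydroxynonenal, fell in B6CASTF1 with a level of 398 in 2-cell embryos, against 1078 in G2 zygotes, and had 1200.4 against 761 in C57BL/6J with no call. Gstp1 had a level of 637 in B6CASTF1 2-cell embryos, against 847 in G2 zygotes, and of 1674 in C57BL/6J 2-cell embryos, against 1442 in G2 zygotes, with no call in either strain. Gstm2 had 13.6 in B6CASTF1 2-cell embryos, against 0.163 in G2 zygotes, with no call.

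Of the 5 members of the thioredoxin system, Txn2, Txnrd1 and Txnrd3 fell and 0 rose in B6CASTF1, and Txn1 rose and 0 fell among the 3 tested in C57BL/6J. Txn2, the mitochondrial thioredoxin, had a level of 1391 in B6CASTF1 2-cell embryos, against 3768 in G2 zygotes, and of 200 in C57BL/6J 2-cell embryos, against 971 in G2 zygotes. The authors' deposited tables gave it a log2 change of -1.44 (SE 0.20 and adjusted p = 9.81e-12) in B6CASTF1 and -2.28 (SE 1.21 and adjusted p = 0.104) in C57BL/6J. Txnrd1, the cytosolic reductase (chromosome 10, 82833951 to 82897712, plus strand), had a level of 337 in B6CASTF1 2-cell embryos, against 990 in G2 zygotes, and of 326 in C57BL/6J 2-cell embryos, against 285 in G2 zygotes. In the authors' deposited tables Txnrd1 had a log2 change of -1.55 (SE 0.28 and adjusted p = 1.1e-07) in B6CASTF1 and of 0.19 (SE 0.71 and adjusted p = 0.848) in C57BL/6J, and the difference between the strains was not called (adjusted p = 0.102).

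Txnrd3, the thioredoxin-glutathione reductase known from testis, had a level of 61.2 in B6CASTF1 2-cell embryos, against 457 in G2 zygotes, and of 32.9 in C57BL/6J 2-cell embryos, against 166 in G2 zygotes, where it was not tested. Txn1, the cytosolic thioredoxin, had a level of 699 in B6CASTF1 2-cell embryos, against 413 in G2 zygotes, and of 3130 in C57BL/6J 2-cell embryos, against 1455 in G2 zygotes. The rise of Txn1 was called in C57BL/6J alone (log2 fold change 1.11, SE 0.42 and adjusted p = 0.0199 by the authors' deposited table), and it lost its call when fold changes were recentred on the median gene. Txnrd2, the mitochondrial reductase, had 14.2 in B6CASTF1 2-cell embryos, against 0.319 in G2 zygotes, with no call, and was not tested in C57BL/6J.

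Of the superoxide dismutases, Sod1, the copper-zinc enzyme of the cytosol, had a level of 774 in B6CASTF1 2-cell embryos, against 1093 in G2 zygotes, and of 1910 in C57BL/6J 2-cell embryos, against 2401 in G2 zygotes, with no call. Sod2, the manganese enzyme of mitochondria (chromosome 17, 13006846 to 13040063, plus strand), had a level of 4009 in B6CASTF1 2-cell embryos, against 1839 in G2 zygotes, and of 1248 in C57BL/6J 2-cell embryos, against 1876 in G2 zygotes. Sod2 rose in B6CASTF1 (log2 fold change 1.12, SE 0.22 and adjusted p = 7.23e-07 by the authors' deposited table) and had no call in C57BL/6J (-0.59, SE 0.46 and adjusted p = 0.28). Cat, the peroxisomal catalase, had a level of 38.1 in B6CASTF1 2-cell embryos, against 0.165 in G2 zygotes, and of 228 in C57BL/6J 2-cell embryos, against 3.81 in G2 zygotes. The rise of Cat was called in B6CASTF1, and the gene was not tested in C57BL/6J.

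Hmox2, the constitutive heme oxygenase (chromosome 16, 4726361 to 4766742, plus strand), had a level of 8932 in B6CASTF1 2-cell embryos, against 344 in G2 zygotes, and of 7799 in C57BL/6J 2-cell embryos, against 224 in G2 zygotes. Its log2 change in the authors' deposited tables was 4.70 (SE 0.39 and adjusted p = 5.5e-33) in B6CASTF1 and 5.12 (SE 0.81 and adjusted p = 2.04e-09) in C57BL/6J. Hmox1, the stress-inducible form, had no call at any step, and its SE of 2.51 in B6CASTF1 and 3.07 in C57BL/6J at the 2-cell step leaves a wide error. Nqo1, a quinone reductase that is a textbook target of Nfe2l2 (chromosome 8, 107388225 to 107403206, minus strand), had a level of 72.1 in B6CASTF1 2-cell embryos, against 469 in G2 zygotes, and of 60.2 in C57BL/6J 2-cell embryos, against 701 in G2 zygotes. Nqo1 fell 6.50-fold and 11.7-fold, with a log2 change in the authors' deposited tables of -2.70 (SE 0.40 and adjusted p = 1.07e-10) and -3.54 (SE 1.28 and adjusted p = 0.0133).

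Nfe2l2 is the transcription factor that drives antioxidant genes under oxidative stress, and Keap1 is the adaptor that sends it for degradation. Nfe2l2 (chromosome 2, 75675513 to 75704641, minus strand) had a level of 762 in B6CASTF1 2-cell embryos, against 700 in G2 zygotes, and of 2135 in C57BL/6J 2-cell embryos, against 657 in G2 zygotes. In the authors' deposited tables its log2 fold change was 0.12 (SE 0.30 and adjusted p = 0.741) in B6CASTF1 and 1.70 (SE 0.57 and adjusted p = 0.00791) in C57BL/6J. Keap1 had a level of 99.9 in B6CASTF1 2-cell embryos, against 36.6 in G2 zygotes, and of 149 in C57BL/6J 2-cell embryos, against 0.193 in G2 zygotes, and its rise was called in C57BL/6J alone.

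Between G1 and G2 zygotes fewer members were called, and of the 35 tested in both strains 0 were called in the same direction in both and 1 (Gstm1) in opposite directions. Of the 12517 genes tested in both, 2.28% rose in both, 1.24% fell in both and 0.152% were called in opposite directions. In B6CASTF1, 8 of 37 tested members rose and 5 fell, beside 9.63% of all tested genes in each direction. In C57BL/6J, 2 of 35 rose and 2 fell, beside 5.01% and 2.87% of all tested genes. The SE also differed, with a median over the tested members of 0.35 in B6CASTF1 and 1.08 in C57BL/6J. Across the 35 members tested in both strains the log2 fold changes correlated at r = -0.25 (Spearman rho = 0.18), beside rho = 0.35 over 12517 genes, and 17 of 35 had the same sign.

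In B6CASTF1 G2 zygotes the members that rose were Prdx2, Prdx3, Txn2, Sod1, Gsta4, Glrx3, Glrx5 and Hmox2. Gsta4 had a level of 1078 in B6CASTF1 G2 zygotes, against 305 in G1 zygotes, and of 761 in C57BL/6J G2 zygotes, against 364 in G1 zygotes. Sod1 had a level of 1093 in B6CASTF1 G2 zygotes, against 400.04 in G1 zygotes, and of 2401 in C57BL/6J G2 zygotes, against 750.1 in G1 zygotes. The log2 fold change of Sod1 in the authors' deposited tables was 1.45 (SE 0.28 and adjusted p = 6.03e-06) in B6CASTF1 and 1.68 (SE 0.61 and adjusted p = 0.0644) in C57BL/6J, so a fold of similar size was called in the strain with the smaller SE. For Gsta4 the log2 fold change was 1.82 (SE 0.28 and adjusted p = 3.65e-09) in B6CASTF1 and 1.07 (SE 0.51 and adjusted p = 0.223) in C57BL/6J in the authors' deposited tables. Glrx5 had 2661 against 1363 in B6CASTF1 and 1873 against 1321 in C57BL/6J, and Prdx2 had 23944 against 13923 in B6CASTF1 and 24688 against 16127 in C57BL/6J, G2 zygotes given against G1 zygotes. Prdx3 rose 4.53-fold, Glrx3 2.99-fold, Hmox2 2.53-fold and Txn2 1.47-fold in B6CASTF1.

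The members that fell in B6CASTF1 G2 zygotes were Gpx1, Gpx3, Cat, Mgst3 and Gstm1. Gpx3 fell with a log2 fold change of -1.51 (SE 0.22 and adjusted p = 3.9e-10), Gpx1 with -0.86 (SE 0.25 and adjusted p = 0.00526) and Mgst3 with -0.79 (SE 0.17 and adjusted p = 5.61e-05) in the authors' deposited table. Gpx1 therefore fell before it rose in B6CASTF1, with levels of 352, 194 and 8818 across G1 zygotes, G2 zygotes and 2-cell embryos. Cat had a level of 0.165 in B6CASTF1 G2 zygotes, against 27.4 in G1 zygotes, and Gstm1 had 0.322 against 11.9.

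In C57BL/6J G2 zygotes Prdx4 and Gstm1 rose and Gss and Keap1 fell. Prdx4 had a level of 17.9 in C57BL/6J G2 zygotes, against 2.54 in G1 zygotes (log2 fold change 2.81, SE 0.92 and adjusted p = 0.033 by the authors' deposited table), and its level in B6CASTF1 was 8.75 in G2 zygotes, against 9.01 in G1 zygotes. The other 3 calls had a stage under 1: Gstm1 stood at 26.6 in C57BL/6J G2 zygotes, against 0.150 in G1 zygotes, Gss at 0.193 against 47.0, and Keap1 at 0.193 against 37.7. With those 3 left out, 1 member rose and 0 fell.

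**Figure D4:**
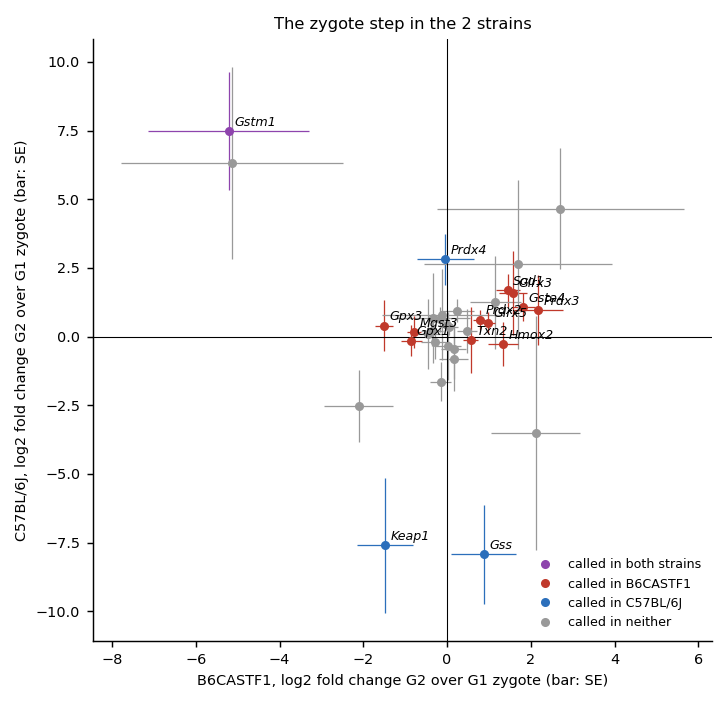
Log2 fold change of G2 over G1 zygotes in B6CASTF1 (horizontal) and C57BL/6J (vertical) from the authors' deposited tables, 1 point per member tested in both strains with SE bars; colours show in which strain a call was made. Gstm1 has the widest gap between strains (-5.21 and 7.47), and Sod1 and Gsta4 are above 0 in both.

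Between MII eggs and G1 zygotes of C57BL/6J, 0 of 35 tested members rose and 0 fell by the authors' DESeq2 adjusted p, beside 1.62% and 1.12% of all tested genes. At an unadjusted p under 0.05, 3 members were higher and 2 lower. The share of all tested genes at this unadjusted threshold was not counted, so no excess can be read from these members. Gsta4 had the smallest adjusted p (log2 fold change 1.58, SE 0.52 and adjusted p = 0.071 by the authors' deposited table), with a level of 364 in G1 zygotes, against 121 in MII eggs. Glrx5 had 1321 in G1 zygotes, against 591 in MII eggs (adjusted p = 0.0887 by the authors' deposited table). Prdx1 had 55707 in G1 zygotes, against 82536 in MII eggs, and the 95% interval of its log2 change in the authors' deposited table ran from -0.98 to -0.16.

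The difference between the strains' log2 fold changes was tested for each gene with the combined SE. At the G2 against G1 step, 1 of 35 members had a higher change in B6CASTF1 (Gss) and 1 a lower change (Gstm1), beside 1.04% and 0.879% of 12517 genes. At the 2-cell step, 1 of 35 had a higher change in B6CASTF1 (Sod2) and 2 a lower change (Gsta4 and Keap1), beside 11.6% and 5.03% of 12573 genes. For Sod2 the difference was 1.71 on the log2 scale (SE 0.50, normal test adjusted by Benjamini-Hochberg over all genes, p = 0.00744), from 1.12 in B6CASTF1 and -0.59 in C57BL/6J in the authors' deposited tables. For Gsta4 it was -2.09 (SE 0.60 and adjusted p = 0.0055), from -1.44 in B6CASTF1 and 0.66 in C57BL/6J in the authors' deposited tables. Nfe2l2, called in C57BL/6J alone, had a difference of -1.58 (SE 0.65) with an adjusted p of 0.0757. The call for Keap1 rested on a C57BL/6J G2 zygote level of 0.193, and those for Gss and Gstm1 on a stage under 1 as well. The called differences of these 5 genes were all lost when the SE was raised 1.5 times.

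Promoter sequences are shown for 2 peroxiredoxins that moved in opposite directions at the 2-cell step and for a thioredoxin reductase. Each window covers 250 bases before to 50 after a RefSeq start (GRCm38.p6) and is written 5′ to 3′ on the gene's strand. Prdx1 is from chr4:116685349-116685648 (plus strand) and Txnrd1 from chr10:82858956-82859255 (plus strand), with capitals for antioxidant response element letters, TGACNNNGC or TGAGNNNGC on either strand. Prdx4 is from chrX:155338411-155338710 (minus strand), with capitals for the Nr5a2 site letters CAAGGNCA on either strand. A gene can have several RefSeq starts, and the windows of Txnrd1 and Prdx4 lie inside the gene spans given above. Which start was used in these eggs and embryos was not tested.
Prdx1: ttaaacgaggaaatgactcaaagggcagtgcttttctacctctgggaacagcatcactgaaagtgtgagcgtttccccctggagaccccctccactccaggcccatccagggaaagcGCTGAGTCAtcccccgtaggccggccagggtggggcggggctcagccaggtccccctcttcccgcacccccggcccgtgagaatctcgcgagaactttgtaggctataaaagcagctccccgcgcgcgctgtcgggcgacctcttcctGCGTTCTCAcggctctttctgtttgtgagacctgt
Txnrd1: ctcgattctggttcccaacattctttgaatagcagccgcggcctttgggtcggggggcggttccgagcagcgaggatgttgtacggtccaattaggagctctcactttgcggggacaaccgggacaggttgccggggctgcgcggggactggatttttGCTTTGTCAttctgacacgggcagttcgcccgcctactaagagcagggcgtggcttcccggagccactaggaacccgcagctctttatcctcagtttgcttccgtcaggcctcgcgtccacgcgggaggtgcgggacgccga
Prdx4: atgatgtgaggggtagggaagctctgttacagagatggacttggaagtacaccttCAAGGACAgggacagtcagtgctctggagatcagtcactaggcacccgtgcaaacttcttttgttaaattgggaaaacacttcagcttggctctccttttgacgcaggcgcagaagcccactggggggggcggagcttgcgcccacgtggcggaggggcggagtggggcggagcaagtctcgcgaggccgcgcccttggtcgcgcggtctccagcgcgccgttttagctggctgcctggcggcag

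Of the 35 members with such a window, 10 held the antioxidant response element letters (Prdx1, Srxn1, Txn2, Txnrd1, Txnrd3, Sod1, Gclm, Gstp1, Mgst1 and Nfe2l2), beside 30.8% of 27025 genes. The match 133 bases before the start of Prdx1 overlaps the AP-1 letters TGAGTCA. Of the members that rose in both strains at the 2-cell step, 0 of the 10 with a window held these letters, and of those that fell in both, 2 of 5 did (Mgst1 and Prdx1). The Nr5a2 site letters were in 4 of 35 members (Prdx4, Txn2, Mgst1 and Nfe2l2), beside 7.64% of genes. They were in 1 of the 10 that rose in both strains (Prdx4) and in 1 of the 5 that fell in both (Mgst1). These matches are descriptions of letters in short windows.

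Around the members, the genes that supply NADPH moved both ways at the 2-cell step: 5 of 16 tested rose and 5 fell in B6CASTF1, and 2 of 12 rose and 4 fell in C57BL/6J. Over all tested genes at this step 33.1% rose and 26.8% fell in B6CASTF1, and 25.0% rose and 25.3% fell in C57BL/6J. Taldo1, transaldolase of the pentose phosphate pathway, rose in both strains to 5707 in B6CASTF1 2-cell embryos, against 158 in G2 zygotes, and to 3211 in C57BL/6J 2-cell embryos, against 142 in G2 zygotes. Idh2, the mitochondrial NADP-dependent isocitrate dehydrogenase, rose in both as well. Me1, malic enzyme, fell to 796 in B6CASTF1 2-cell embryos, against 15243 in G2 zygotes, and to 689 in C57BL/6J 2-cell embryos, against 2942 in G2 zygotes. G6pdx, the first enzyme of the pentose phosphate pathway, fell in B6CASTF1 to 668, against 9945 in G2 zygotes. In this list and the wider lists below, named genes come from the called genes with the 2 smallest p each way in each strain. A gene given for a single strain may therefore have changed in the other as well.

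Of the genes for cystine uptake and glutathione turnover, 8 of 21 tested rose and 6 fell in B6CASTF1, and 4 of 15 rose and 5 fell in C57BL/6J, beside the same 33.1% and 26.8% of all tested genes in B6CASTF1 and 25.0% and 25.3% in C57BL/6J. Slc7a11, the cystine importer, fell to 52.8 in B6CASTF1 2-cell embryos, against 1652 in G2 zygotes (log2 fold change -4.97, SE 0.31 and adjusted p = 7.47e-55 by the authors' deposited table). Slc1a1, a transporter of glutamate and cysteine, rose in C57BL/6J to 1376, against 10.5 in G2 zygotes. Mat2a, which makes S-adenosylmethionine, rose in both strains, and Ggct, which breaks down gamma-glutamyl peptides, fell in C57BL/6J to 2466, against 17761 in G2 zygotes. Of the other glutathione transferases and glyoxalases, 4 of 16 rose and 4 fell in B6CASTF1, and 2 of 12 rose and 5 fell in C57BL/6J, to be read against the same shares. Hagh, a glyoxalase, rose and Gstz1 fell in both strains.

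Of the Nfe2l2 partners and regulators, 7 of 14 rose and 2 fell in B6CASTF1, and 3 of 13 rose and 4 fell in C57BL/6J. Of all tested genes 33.1% rose and 26.8% fell in B6CASTF1, and 25.0% and 25.3% in C57BL/6J. Cul3, the ubiquitin ligase scaffold that works with Keap1, rose to 24116 in B6CASTF1 2-cell embryos, against 248 in G2 zygotes, and to 6159 in C57BL/6J 2-cell embryos, against 158 in G2 zygotes. Nfe2l3, a relative of Nfe2l2, fell in both strains. Of the other thiol-disulfide and repair proteins, 12 of 26 rose and 7 fell in B6CASTF1, and 9 of 23 rose and 4 fell in C57BL/6J, to be read against the same shares. P4hb and Pdia3, disulfide isomerases of the endoplasmic reticulum where Prdx4 and Gpx7 also act, rose in both strains. Txndc5, another disulfide isomerase of that compartment, fell in B6CASTF1 to 52.7, against 774 in G2 zygotes. Txnip, which binds and inhibits thioredoxin, fell to 408 in B6CASTF1 2-cell embryos, against 4654 in G2 zygotes, and to 121 in C57BL/6J 2-cell embryos, against 1607 in G2 zygotes.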

How the data were processed

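Per the submitters' processing notes, the authors' tools were DESeq2 (version 1.18.1, from the file names), Picard, TopHat, kallisto and bcl2fastq, with the build mm10 and in no stated order. Per the file headers, each deposited table holds per gene the mean normalized count (a signal), the log2 fold change and SE, its shrunken form, the Wald score, and raw and adjusted p-values. Depth per sample is unknown, so the authors' SE stands for precision.

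Stage means, called levels, were solved from each strain's mean count, its fold changes and the number of samples per stage. Levels per kb used GENCODE M21 transcripts, 1 per gene. For the strain difference, C57BL/6J log2 fold changes were subtracted from those of B6CASTF1 and divided by their joint SE. The normal p was adjusted by Benjamini-Hochberg over all genes tested in both strains. The calculation was run on fold changes simulated as normal with the authors' SE. That run shares the assumption of the test, so it cannot show whether the SE is right. The labels name no females or days behind the samples of a group, so the spread behind each p-value may be technical. The members and lists were chosen with earlier results of these data known. Full statistics were given for up to 6 members each way per comparison (mean count 100 or more) and for every member called between strains; others follow their role. Alternatives were stricter thresholds, a minimum mean count, recentring and a larger SE. Python 3.11.15, pandas 2.3.3 and scipy 1.17.1 were used.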

Additional observations from a re-analysis of the deposited data

Results flagged for a closer look

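The change between stages differed between the 2 strains for 5 members, by the test of the difference itself. Between G1 and G2 zygotes, Gss had a change 8.81 higher on the log2 scale in B6CASTF1 (adjusted p = 0.00134), with levels of 36.5 in G2 and 19.8 in G1 zygotes of B6CASTF1 and of 0.193 in G2 and 47.0 in G1 zygotes of C57BL/6J. Gstm1 had a difference of -12.7 at the same step (adjusted p = 0.00174), with 0.322 in G2 and 11.9 in G1 zygotes of B6CASTF1 and 26.6 in G2 and 0.150 in G1 zygotes of C57BL/6J. Reads of Gstm1 can be split with its paralogs.

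At the 2-cell step, Sod2 had a difference of 1.71, Gsta4 of -2.09 and Keap1 of -8.14, with adjusted p of 0.00744, 0.0055 and 0.0141. The Keap1 difference rested on a level of 0.193 in C57BL/6J G2 zygotes. Sod2 and Gsta4 had levels of at least 1 in every stage of both strains, with 2-cell levels of 4009 and 398 in B6CASTF1 and of 1248 and 1200.4 in C57BL/6J. Strain and library set cannot be told apart for any of the 5.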

How the results depend on the processing

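Each count of members was recomputed under 5 other settings and 1 added after seeing the data, which kept only members with a level of at least 1 in both stages. The shares over all tested genes were not recomputed under these settings, so the counts below have no matching share. Raising the SE 1.5 times left 9 members that rose at the 2-cell step in C57BL/6J, 5 that rose and 2 that fell between G1 and G2 zygotes in B6CASTF1, 0 that rose and 0 that fell at that step in C57BL/6J, and 0 strain differences in either direction at either step. At an adjusted p under 0.01, C57BL/6J G2 zygotes had 0 members that rose and 1 that fell, and 1 member had a lower change in B6CASTF1 at the 2-cell step. A minimum absolute log2 change of 1 left 5 risen and 3 fallen members in B6CASTF1 G2 zygotes. The added alternative left 1 risen and 0 fallen in C57BL/6J G2 zygotes, 3 fallen in B6CASTF1 G2 zygotes, 0 strain differences at the zygote step and 1 lower change at the 2-cell step. Recentring on the median gene subtracted 0.21 from the 2-cell log2 fold changes in B6CASTF1 and 0.23 in C57BL/6J. Between MII eggs and G1 zygotes the median subtracted was -0.070, and the count there rose to 1 risen member, Gsta4. Apart from the larger SE, whose effect follows from its construction, and the stricter thresholds, the cause was not tested. The other counts stayed within 1.5 times. Of 70 calls of single members and strain differences, 26 were lost with the larger SE, 13 at the stricter p, 5 at the minimum change, 2 after recentring and 0 with a minimum mean count of 10, and 0 changed direction. No paired analysis was possible because the deposited tables hold no values per sample, and leaving out a replicate was not possible for the same reason. Per-sample depth and spread are unknown, so 1 deviating library could not be looked for.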

Other observations

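Genes that handle iron and heme, which meet the glutathione system through Gpx4 and the heme oxygenases, moved both ways at the 2-cell step: 6 of 11 tested rose and 2 fell in B6CASTF1, and 4 of 9 rose and 3 fell in C57BL/6J. Over all tested genes 33.1% rose and 26.8% fell in B6CASTF1, and 25.0% rose and 25.3% fell in C57BL/6J, and the counts of the other lists here stand beside the same shares. Ftl1, a ferritin subunit that stores iron, had a level of 23425 in B6CASTF1 2-cell embryos, against 3414 in G2 zygotes, and of 13548 in C57BL/6J 2-cell embryos, against 2483 in G2 zygotes. Tfrc, the transferrin receptor, rose in B6CASTF1 to 13668, against 110.1 in G2 zygotes. Ncoa4, which delivers ferritin for breakdown, fell in both strains, to 1367 in B6CASTF1 2-cell embryos, against 7785 in G2 zygotes, and to 316 in C57BL/6J 2-cell embryos, against 2821 in G2 zygotes. Of the selenoprotein machinery and other selenoproteins, 7 of 19 rose and 5 fell in B6CASTF1, and 6 of 13 rose and 1 fell in C57BL/6J. Vimp, a selenoprotein of the endoplasmic reticulum, had 33078 in B6CASTF1 2-cell embryos, against 26.0 in G2 zygotes, and 24295 in C57BL/6J 2-cell embryos, against 19.7 in G2 zygotes. Sepsecs, which makes selenocysteinyl-tRNA, fell in both strains. Of the oxidant-producing enzymes, 3 of 9 rose and 2 fell in B6CASTF1, and 1 of 4 rose and 1 fell in C57BL/6J, with Cyba, a subunit of NADPH oxidases, higher and Xdh, xanthine dehydrogenase, lower in both.

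Stored mRNAs can be lengthened or shortened at the tail through the cytoplasmic polyadenylation element, taken here as TTTTAT or TTTTAAT in the last 150 nt of the 3' UTR (GENCODE M21). It was present in 6 of 41 members (Txnrd1, Sod3, Gsr, Glrx2, Nqo1 and Nfe2l2), beside 22.1% of 20137 genes. Of the members that changed between G1 and G2 zygotes in B6CASTF1, 0 of the 8 that rose and 0 of the 5 that fell had it, beside 16.1% and 39.0% of all genes that rose and fell there. At the 2-cell step Nqo1 fell in both strains and Txnrd1 in B6CASTF1 alone. Gsr and Glrx2, which also have the element, rose in both strains, and Nfe2l2 rose in C57BL/6J alone. The element was in 2 of 17 risen and 2 of 9 fallen members in B6CASTF1, beside 21.6% and 29.0% of all such genes. In C57BL/6J it was in 3 of 17 and 1 of 5, beside 21.8% and 28.9%. The sites of Txnrd1 and Nqo1 follow, with the element in capitals, on chromosomes 10 and 8.
Txnrd1: ttccatgtatTTTTATtacaattttt
Nqo1: ttctttttttTTTTAATcgaaataaat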
